A study of Mus musculus with 64 samples.

Results

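Pttg1, Ublcp1, Igtp, Gm12253, Zfp39, Trim11, Ulk2 and Asgr2 lie on mouse chromosome 11, and each passed the test between Hmgn1 Hmgn2 double knockouts and their wild types in at least 1 organ. These are 8 of the 16590 genes with a probe on the arrays, read by 9 of 25697 probes, with 2 probes for Ulk2 and 1 for each other gene. They were chosen by the measured difference itself, so the values of double knockouts against their own wild types are given below as a description, with standard errors and no test. Comparisons whose differences played no part in the choice, between Hmgn2 knockouts and their wild types and between organs of wild types, are tested.

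The study used Illumina bead arrays to measure RNA of 16 male mice, 21 weeks old, with 1 array each for brain, liver, spleen and thymus. The 4 groups held 4 mice each. The mutant groups were double knockouts, labelled Hmgn1-/-n2-/- with the strain C57BL/6J, and homozygous Hmgn2-/- knockouts with the strain C57BL/6. Each had wild types of its own strain label, called here the C57BL/6J and the C57BL/6 wild types. Both deleted genes encode small nucleosome-binding proteins that loosen chromatin. The labels name no treatment and do not say whether mutants and wild types were littermates, so the mutations cannot be told apart from other differences between the colonies.

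As background, the 8 genes belong to unrelated pathways. Pttg1 encodes securin, which holds back separase until sister chromatids part at anaphase, and Ublcp1 encodes a phosphatase that acts on nuclear proteasomes. Igtp encodes a GTPase that interferon gamma induces in infected cells, where it helps control vacuoles that hold parasites. Trim11 encodes a ubiquitin ligase of the tripartite motif family, and Zfp39 a zinc finger protein. Ulk2 encodes a kinase that starts autophagy, and Asgr2 encodes a subunit of the receptor with which liver cells take up glycoproteins that have lost sialic acid. Gm12253 is annotated by RefSeq as a protein-coding gene, and no role is given for it here.

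In the RefSeq order of chromosome 11 the genes run Pttg1, Ublcp1, Igtp, Gm12253, Zfp39, Trim11, Ulk2 and Asgr2. The closest were Trim11 and Zfp39, with 9 genes between them, then Ublcp1 and Pttg1 with 13, and Gm12253 and Igtp with 14. The widest gaps held 338 genes, between Igtp and Ublcp1, and 248 genes, between Asgr2 and Ulk2.

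Promoter windows from RefSeq, build GRCm38.p6, are shown for 3 of the genes and for Irgm2, the gene next to Igtp, whose level followed that of Igtp most closely. GRCm38 is the sequence of the C57BL/6J strain. Each window holds 250 bases before and 50 bases after the annotated start, written 5′ to 3′ on the strand of the gene. Igtp and Irgm2 are shown because their levels correlated over the 64 arrays, at a Pearson's r of 0.66 with organ means removed. Zfp39 and Pttg1 are shown because both differed in liver and thymus, Zfp39 in 1 direction and Pttg1 in opposite ones. Capitals mark 3 motifs searched on both strands: the core of the interferon-stimulated response element, which is GAAA, any 2 bases and GAAA again, the gamma-activated site, TTCNNNGAA, and the CCAAT box, CCAAT, which reads ATTGG on the other strand. The windows are Igtp at chr11:58199306-58199605 on the plus strand, Irgm2 at chr11:58214727-58215026 on the plus strand, Zfp39 at chr11:58904176-58904475 on the minus strand and Pttg1 at chr11:43425932-43426231 on the minus strand.
Igtp: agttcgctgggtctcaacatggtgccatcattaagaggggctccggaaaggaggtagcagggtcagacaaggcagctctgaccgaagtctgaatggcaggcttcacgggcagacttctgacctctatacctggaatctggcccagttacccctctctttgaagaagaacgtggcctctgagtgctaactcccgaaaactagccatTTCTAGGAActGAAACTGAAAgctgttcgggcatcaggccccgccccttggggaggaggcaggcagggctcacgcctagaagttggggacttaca
Irgm2: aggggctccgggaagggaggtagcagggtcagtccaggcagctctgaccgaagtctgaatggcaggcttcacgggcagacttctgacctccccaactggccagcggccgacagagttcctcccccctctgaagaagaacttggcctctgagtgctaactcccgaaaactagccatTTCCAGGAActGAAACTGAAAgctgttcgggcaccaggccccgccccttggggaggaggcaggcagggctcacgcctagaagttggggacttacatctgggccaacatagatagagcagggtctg
Zfp39: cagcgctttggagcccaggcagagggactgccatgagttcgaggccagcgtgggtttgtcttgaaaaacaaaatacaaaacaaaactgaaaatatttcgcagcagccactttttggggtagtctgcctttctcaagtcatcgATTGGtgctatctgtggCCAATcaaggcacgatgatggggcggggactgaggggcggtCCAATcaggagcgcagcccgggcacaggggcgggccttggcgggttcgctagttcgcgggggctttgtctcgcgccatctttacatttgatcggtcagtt
Pttg1: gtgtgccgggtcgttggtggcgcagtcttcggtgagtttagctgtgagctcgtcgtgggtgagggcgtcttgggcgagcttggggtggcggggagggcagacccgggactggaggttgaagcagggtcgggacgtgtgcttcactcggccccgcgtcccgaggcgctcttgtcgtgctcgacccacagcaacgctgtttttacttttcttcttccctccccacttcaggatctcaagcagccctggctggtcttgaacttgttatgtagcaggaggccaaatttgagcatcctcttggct
The windows of Igtp and Irgm2 each held 1 response element core, GAAACTGAAA, which began 34 bases before the start of Igtp and 64 bases before the start of Irgm2. A gamma-activated site lay just upstream in both, TTCTAGGAA in Igtp and TTCCAGGAA in Irgm2. The longest run of bases shared by the 2 windows was 61 and held neither motif. It began downstream of both, 11 bases before the start of Igtp and 41 before that of Irgm2. Of the other genes Asgr2 also held 1 core, on the other strand as TTTCTGTTTC, 72 bases before its start, so 2 of the 7 windows of the set had one. The core was found in 3.44% of all 32851 promoter windows and the gamma-activated site in 8.3%. Zfp39 held 3 CCAAT boxes, a motif found in 37.4% of windows. The Pttg1 window held none of these letters. A match describes the letters of the window and not a site in use. Of the 8 genes, 7 had a window in the table.

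Arrays detected 9550 to 13411 probes each at a detection p under 0.01. Levels are log2 intensities after background correction and quantile normalization within each organ, and the lowest detected signal on an array lay between 4.72 and 5.17. The Hmgn2 probe followed the labels in brain, liver and thymus. In the liver it read 4.39 to 4.87 in double knockouts against 8.65 to 9.31 in C57BL/6J wild types. The Hmgn1 probe overlapped in liver, at 10.67 to 10.77 in double knockouts against 10.56 to 10.90 in C57BL/6J wild types, and its arrays lay lower without overlap in brain and in thymus, in thymus at 11.66 to 11.82 in double knockouts against 12.08 to 12.23 in C57BL/6J wild types. Hmgn2 knockouts, whose labels name no loss of Hmgn1, read as low in thymus, at 11.63 to 11.78. In brain double knockouts, at 10.33 to 10.49, lay within the 10.20 to 10.83 of Hmgn2 knockouts. In spleen, with all libraries, double knockouts read 12.23 to 12.54 against 11.64 to 12.34 in C57BL/6J wild types. The Hmgn1 probe therefore did not tell the knockout genotypes apart. The sources used here do not say where this probe lies relative to the deleted part. In the spleen 2 libraries went against their labels: Hmgn2 read 12.13 in the library labelled double knockout replicate 1, where the other 3 read 4.28 to 4.83, and 6.33 in the library labelled C57BL/6J wild type replicate 4, where the other 3 read 11.80 to 12.25. Spleen values are therefore given with and without these libraries. Of the organ markers, the summed intensity of 5 hepatocyte markers was 67161 to 77012 on liver arrays. Exocrine pancreas markers, 4 measured of 5 listed, summed on spleen arrays to 20.4 to 3075 in double knockouts, 26.4 to 59660 in C57BL/6J wild types, 15.0 to 66948 in Hmgn2 knockouts and 21.1 to 17821 in C57BL/6 wild types, and their part in spleen values was not tested. Of 5 markers each for brain and thymus, Snap25 was detected on no brain array and Cd8a on no thymus array, while the other 4 were detected on all arrays of their organ.

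The double knockouts and the C57BL/6J wild types did not overlap in 16 of the 26 pairs of gene and organ that could be tested: 3 of 6 genes in brain, 7 of 7 in liver, 1 of 6 in spleen and 5 of 7 in thymus. Double knockouts were the higher in 8 of these and the lower in 8. Of the 5 in thymus, Gm12253 passed the detection filter only through the C57BL/6J wild types, which fixed its place there. Pttg1 in brain and liver was detected on none of the C57BL/6J wild types and passed the filter only through the other groups. Among all genes tested the groups did not overlap for 7.6% in brain, 6.36% in liver, 7.56% in spleen and 9.35% in thymus. Without double knockout replicate 1, 5 of 6 genes in brain and 2 of 6 in spleen did not overlap, 3 arrays against 4, where 12.8% of all genes in brain and 11.4% in spleen did not. These were the highest counts when single arrays of the 2 groups were left out. Leaving out another array gave 3 in brain, or 4 without C57BL/6J wild type replicate 4, and 1 in spleen. At an adjusted p under 0.05, which chose the genes, the calls were Trim11 in brain, Pttg1, Igtp, Zfp39, Trim11, Ulk2 and Asgr2 in liver, and Pttg1, Ublcp1, Gm12253 and Zfp39 in thymus. The same rule called 0.142% of genes in brain, 0.314% in liver, 0% in spleen and 0.232% in thymus. Nearest to that threshold on the inside was Trim11 in brain, at 0.0394, and on the outside Trim11 in thymus, at 0.0528, followed by Ublcp1 in brain at 0.122 and in liver at 0.139.

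**Figure D1:**
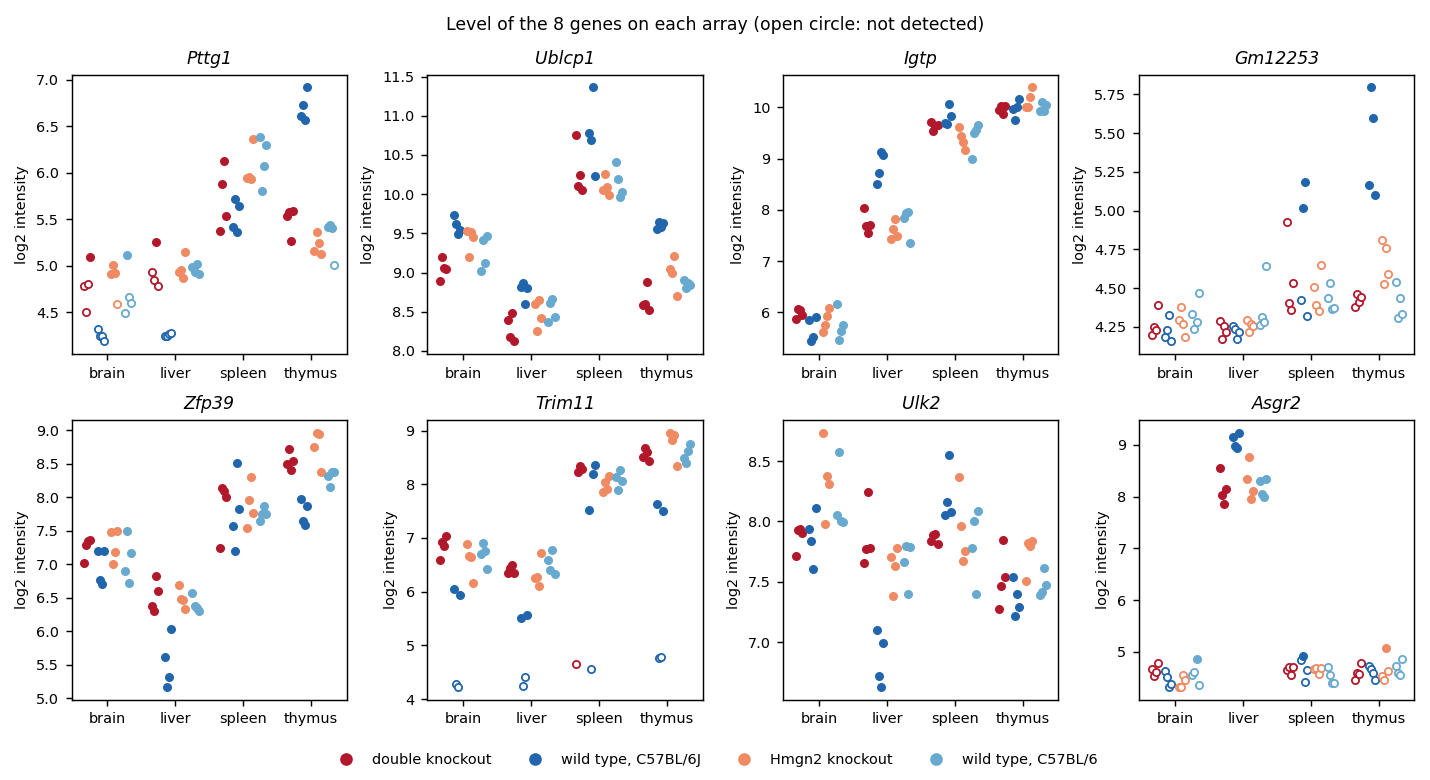
Log2 intensity of the 8 genes on every array (1 point per array, 4 per group), by organ and group, with open circles for arrays where the probe was not detected at p under 0.01. For Ulk2 the probe used in the tests is drawn. The C57BL/6J wild types lie apart from the other 12 arrays for 6 genes in liver and 5 in thymus, among them Gm12253, detected there in that group alone. Pttg1 in liver was not detected in that group.

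Setting both wild-type groups side by side showed which group stood apart. The C57BL/6J wild types lay outside the range of the other 12 arrays of the organ, Hmgn2 knockouts and C57BL/6 wild types included, in 13 of the 26 pairs: 2 in brain, 6 in liver, 0 in spleen and 5 in thymus. Of all genes tested, 0.36% in brain, 0.994% in liver, 1.2% in spleen and 1.27% in thymus had C57BL/6J wild types outside the other 12. The double knockouts lay outside the other 12 arrays in 0 of the 26 pairs, where 2.24%, 0.314%, 0.314% and 0.21% of all genes did in brain, liver, spleen and thymus. Double knockouts did not overlap C57BL/6 wild types in 2 of the 26 pairs, Ulk2 in brain and Zfp39 in thymus, where 17.7%, 5.83%, 7.32% and 5.35% of all genes did not overlap in brain, liver, spleen and thymus. Without the 2 spleen libraries against their labels, a count added after the data were seen, the C57BL/6J wild types lay outside the other 11 spleen arrays for 2 of 6 genes, Ublcp1 and Igtp, against 3.19% of all genes, and the double knockouts for 0 of 6, against 0.953%. Double knockouts then did not overlap C57BL/6 wild types for 1 of 6, Zfp39, against 10.6% of all genes. These comparisons share arrays with the one that chose the genes and are not independent of it. Gm12253 in thymus passed the detection filter only through the C57BL/6J wild-type arrays, so the filter fixed its place among the 5 thymus pairs. Pttg1 in brain and in liver, also among the 13 pairs, was detected on none of the C57BL/6J wild-type arrays. It passed the filter there only through the other 12 arrays. In brain its group means, 4.25 to 4.85, lay under 4.91, the mean of the lowest detected signals on C57BL/6J arrays.

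Trim11 had the widest differences. In the brain it read 6.60, 6.92, 6.86 and 7.03 in double knockouts, against 6.06, 4.28, 4.22 and 5.93 in C57BL/6J wild types. It read 6.16 to 6.89 in Hmgn2 knockouts and 6.43 to 6.91 in C57BL/6 wild types, so only the C57BL/6J wild types lay lower. Double knockouts exceeded C57BL/6J wild types by 1.73 ± 0.32 on the log2 scale (SE, n = 4 each), and C57BL/6 wild types by 0.15 ± 0.32. Both errors come from a spread pooled over all groups. The SD was 1.01 in C57BL/6J wild types and 0.18 to 0.30 in the other groups. The pooled error is therefore too small for the first difference and too large for the second. Only 2 of the 4 C57BL/6J wild-type arrays were detected in each of brain, liver and thymus, and over the settings run the brain difference was 0.74 to 2.08.

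The liver gave the same order for Trim11, with 6.34, 6.45, 6.49 and 6.35 in double knockouts, against 5.52, 4.25, 4.42 and 5.56 in C57BL/6J wild types. The thymus did as well, with 8.52, 8.68, 8.60 and 8.43 in double knockouts, against 7.63, 4.76, 4.78 and 7.50 in C57BL/6J wild types. The log2 difference was 1.47 ± 0.24 in liver and 2.39 ± 0.50 in thymus, and 0.55 to 2.13 and 1.37 to 2.86 over the settings run. C57BL/6J wild types differed from C57BL/6 wild types by -1.59 ± 0.24 in liver and -2.40 ± 0.50 in thymus, whereas double knockouts differed from them by -0.11 ± 0.24 and -0.01 ± 0.50. In liver the SD was 0.70 in C57BL/6J wild types and 0.07 to 0.27 in the other groups. In thymus it was 1.61 against 0.11 to 0.28. The pooled errors are again too small for differences from C57BL/6J wild types and too large for those between other groups.

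The C57BL/6J wild types were not alike for this ligase gene. Replicates 2 and 3, each 1 mouse across organs per the labels, were not detected in brain, liver or thymus, while replicates 1 and 4 were detected in all of them at levels below every double knockout. The split was seen after the values were read and is not tested. In the spleen Trim11 was not detected in the library labelled C57BL/6J wild type replicate 2, at 4.56, nor in the library labelled double knockout replicate 1, at 4.66, which is the one with the Hmgn2 level of a wild type. The library labelled C57BL/6J wild type replicate 3 read 8.20 in spleen, unlike the other organs of that mouse. It also lay outside the fence of 1.5 interquartile ranges in its correlation with other spleen arrays.

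**Figure D2:**
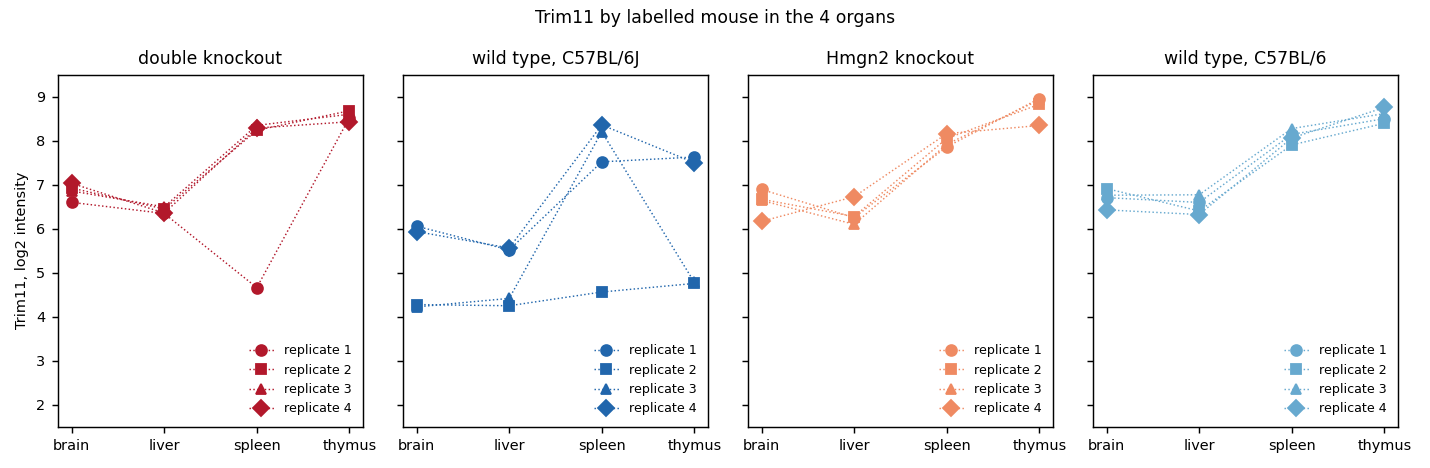
Log2 intensity of Trim11 in brain, liver, spleen and thymus, with 1 panel per group and 1 symbol per labelled mouse, whose organs are joined by dotted lines. In the C57BL/6J wild types replicates 2 and 3 lie below 5 in brain, liver and thymus, and in the spleen the double knockout replicate 1 reads 4.66 while the other 3 read 8.23 to 8.34.

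Zfp39 lies near Trim11 and moved in the same direction. Liver double knockouts read 6.37, 6.30, 6.83 and 6.59, against 5.61, 5.17, 5.31 and 6.04 in C57BL/6J wild types, while Hmgn2 knockouts read 6.33 to 6.68 and C57BL/6 wild types 6.30 to 6.56. In the thymus the double knockouts read 8.50, 8.71, 8.41 and 8.53, against 7.98, 7.64, 7.59 and 7.87 in C57BL/6J wild types. In both organs the C57BL/6J wild types were the lowest 4 of the 16 arrays. The log2 difference was 0.99 ± 0.16 in liver and 0.77 ± 0.13 in thymus, against 0.28 ± 0.17 in brain, where the groups overlapped. Within the C57BL/6J wild types replicates 1 and 4 were the higher 2 for Zfp39 in brain, liver and thymus, as for Trim11.

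Pttg1 differed in opposite directions in different organs. In the thymus it read 5.53, 5.58, 5.26 and 5.58 in double knockouts, against 6.61, 6.73, 6.57 and 6.92 in C57BL/6J wild types, a log2 difference of -1.22 ± 0.12 and a 2.33-fold lower level. The difference was -0.53 without background correction. Hmgn2 knockouts read 5.12 to 5.36 and C57BL/6 wild types 5.01 to 5.44, so the securin gene was high in the C57BL/6J wild types alone. In the liver it was not detected on any of the 4 C57BL/6J wild-type arrays. Liver double knockouts read 4.94, 4.84, 5.26 and 4.78, with 1 of 4 detected, against 4.25, 4.24, 4.26 and 4.27 in C57BL/6J wild types. Since most of these arrays did not detect the probe, no fold is given. Hmgn2 knockouts at 4.87 to 5.15 and C57BL/6 wild types at 4.91 to 5.02 were detected on all 4 arrays each. Brain values ran the same way, at 4.51 to 5.09 in double knockouts and 4.19 to 4.32 in C57BL/6J wild types, but both means lay under the mean of the lowest detected signals, 4.91, and no fold is given.

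Proliferation markers were set beside Pttg1, since dividing cells make securin. The summed intensity in thymus of the 3 measured out of 5 listed was 4131 to 4967 in double knockouts against 3602 to 4053 in C57BL/6J wild types, so it was higher where Pttg1 was lower. It was 4290 to 5044 in Hmgn2 knockouts and 3897 to 4189 in C57BL/6 wild types. Their part in the difference of Pttg1 was not tested. In whole organs fewer cells of a type and less RNA per cell cannot be told apart.

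Ublcp1 had the lower mean in double knockouts in every organ. In the thymus it read 8.59, 8.60, 8.87 and 8.53, against 9.56, 9.64, 9.58 and 9.63 in C57BL/6J wild types, a log2 difference of -0.96 ± 0.10. The arrays did not overlap there, and C57BL/6J wild types were the highest 4 of the 16, above 8.71 to 9.22 in Hmgn2 knockouts and 8.80 to 8.90 in C57BL/6 wild types. In the brain the double knockouts read 8.89 to 9.19 against 9.49 to 9.73 in C57BL/6J wild types. In the liver the double knockouts read 8.12 to 8.48 against 8.60 to 8.87 in C57BL/6J wild types. These 2 gaps, of -0.54 ± 0.12 and -0.48 ± 0.12, did not pass the threshold of the choice, and the C57BL/6J wild types overlapped the Hmgn2 knockouts in both.

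Igtp differed in the liver. Double knockouts read 8.03, 7.68, 7.56 and 7.70, against 8.50, 8.72, 9.13 and 9.07 in C57BL/6J wild types, a log2 difference of -1.11 ± 0.17 and a 2.16-fold lower level. Hmgn2 knockouts read 7.42 to 7.83 and C57BL/6 wild types 7.35 to 7.97, so the GTPase gene was high in the C57BL/6J wild types alone. In the thymus, where Igtp was strongest, the difference was -0.003 ± 0.11. In the brain it was 0.31 ± 0.15, with overlapping arrays.

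Irgm2, the next gene along and a GTPase of the same family, had a liver difference of -0.38 ± 0.18 (adjusted p = 0.571 in the limma fit of the organ). The choice of the 8 fixed that Irgm2, like any other gene of chromosome 11 in the lists, could not pass here. Of the 8 tested genes of an interferon-gamma-induced GTPase list without Igtp, 0 passed in the liver in that fit, with 1 at an unadjusted p under 0.05. Their median log2 difference was -0.07, against -0.02 over all genes tested. Gbp7, a guanylate-binding protein, had -0.53 ± 0.19, and Ifi47 had 0.56 ± 0.31. Of 18 genes of interferon-gamma signalling and the immunoproteasome, 0 passed in the liver and 1 was under 0.05 unadjusted.

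Ulk2 and Asgr2 completed the liver set. Ulk2 read 7.65, 7.77, 8.24 and 7.78 in double knockouts, against 7.10, 6.72, 6.63 and 7.00 in C57BL/6J wild types, a log2 difference of 1.00 ± 0.15. The C57BL/6J wild types lay below the 7.38 to 7.78 of Hmgn2 knockouts and the 7.40 to 7.79 of C57BL/6 wild types. The other probe of Ulk2 gave 6.82, 7.05, 7.17 and 6.21 in double knockouts, against 6.44, 5.96, 6.17 and 6.41 in C57BL/6J wild types, with overlapping arrays and a difference of 0.57 ± 0.19. The autophagy list gave 0 of 24 genes past the test in liver double knockouts, with 0 at an unadjusted p under 0.05 in the limma fit.

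Asgr2 read 8.54, 8.04, 7.85 and 8.15 in liver double knockouts, against 9.15, 8.98, 8.94 and 9.23 in C57BL/6J wild types. The log2 difference was -0.93 ± 0.17. Hmgn2 knockouts read 7.95 to 8.77 and C57BL/6 wild types 7.99 to 8.33, so here too the C57BL/6J wild types stood apart. Asgr1, which encodes the other subunit of the receptor and lies with 1 gene between them, had a difference of -0.12 ± 0.12 (adjusted p = 0.788 in the limma fit). As another gene of chromosome 11, Asgr1 could not pass here. In the asialoglycoprotein clearance list 0 of 11 genes passed in the liver, with 2 at an unadjusted p under 0.05, and the median was -0.24. The 5 hepatocyte markers summed to 71229 to 74055 in double knockouts against 67401 to 77012 in C57BL/6J wild types.

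Detected probes on liver arrays numbered 9550 to 9938 in double knockouts against 10037 to 10407 in C57BL/6J wild types. Their part in the liver differences was not tested. The liver genes ran in both directions, with 4 higher and 3 lower in double knockouts.

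Gm12253 was near background in most arrays. In the thymus the double knockouts read 4.38, 4.46, 4.41 and 4.44, none of them detected, against 5.17, 5.80, 5.60 and 5.10 in C57BL/6J wild types, all detected. No Hmgn2 knockout, at 4.53 to 4.81, or C57BL/6 wild type, at 4.30 to 4.54, was detected. C57BL/6J wild types exceeded the double knockouts at least 1.32-fold, with the undetected arrays set at their lowest detected signal. In the spleen it was detected in 2 libraries, those labelled C57BL/6J wild type replicates 2 and 3, at 5.02 and 5.19, and in brain and liver on no array.

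The spleen comparison held the 2 libraries that went against their labels. With all libraries, Ulk2 alone had arrays that did not overlap, at 7.82 to 7.90 in double knockouts against 8.05 to 8.55 in C57BL/6J wild types. Without the 2 libraries, 4 of the 6 genes did not overlap, 3 arrays against 3, where 18.5% of all genes did not. Ublcp1 then read 10.05 to 10.24 in double knockouts against 10.69 to 11.36 in C57BL/6J wild types, and its log2 difference was -0.81 against -0.48 with all libraries. Trim11 read 8.23 to 8.34 in double knockouts against 4.56 to 8.20 in C57BL/6J wild types, a difference of 1.53, against 0.22 with all libraries. Its groups were barely apart, at 8.23 against 8.20, the latter in the replicate 3 library that was unlike that mouse's other organs. The wild-type array at 4.56 was not detected. Igtp read 9.54 to 9.65 in double knockouts against 9.68 to 10.06 in C57BL/6J wild types. Ulk2 was the fourth, which its full set of arrays already fixed. Pttg1 and Zfp39 overlapped in either setting.

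The 8 genes were scattered among genes that did not pass. Among other tested genes of chromosome 11, 0 of 784 in brain, 0 of 656 in liver, 0 of 802 in spleen and 0 of 791 in thymus were called between double knockouts and C57BL/6J wild types, a count that the choice of the 8 fixes. The neighbours named next could not pass for the same reason. Next to Zfp39, 2810021J22Rik had a thymus difference of 0.47 ± 0.10 (adjusted p = 0.0528 in the limma fit). Rnf145, with 1 gene between it and Ublcp1, had a liver difference of -0.60 ± 0.14 (adjusted p = 0.0935). Iba57, with 2 genes between it and Trim11, had 0.47 ± 0.13 in liver (adjusted p = 0.18).

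**Figure D3:**
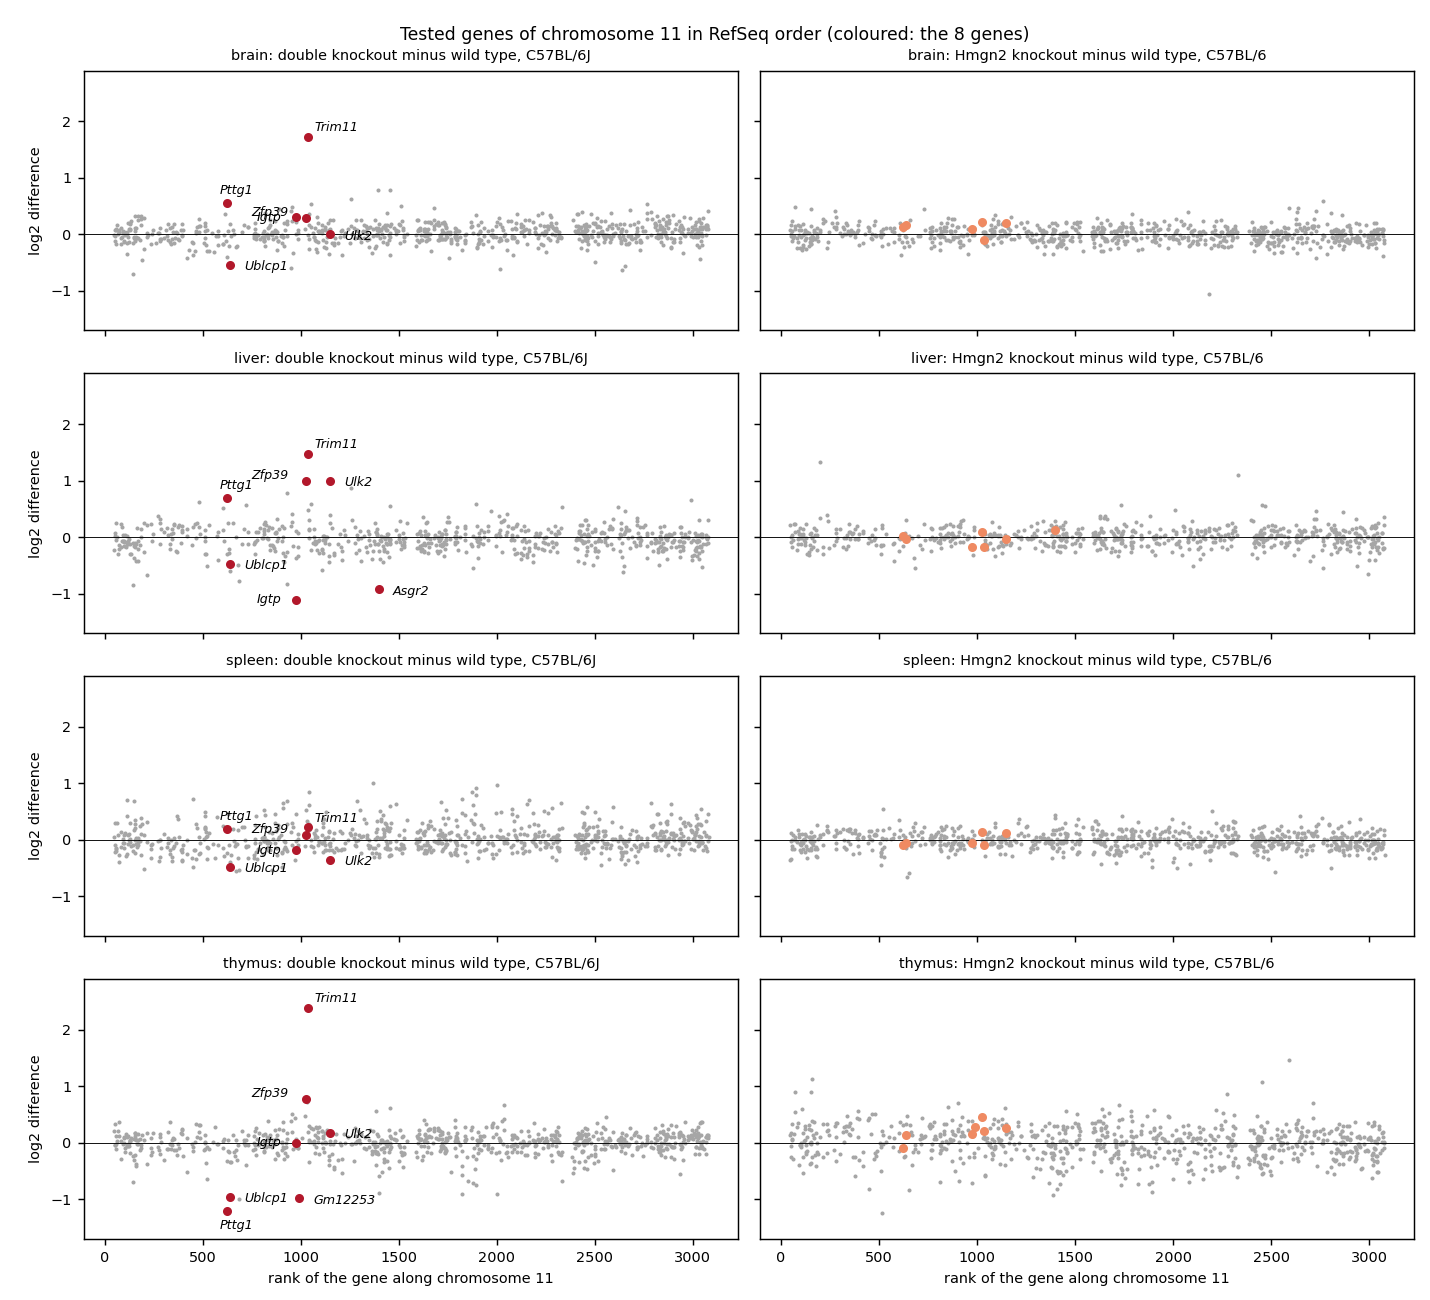
Log2 difference of the tested genes of chromosome 11 against their rank along it, for double knockouts minus C57BL/6J wild types (left) and Hmgn2 knockouts minus C57BL/6 wild types (right), by organ. Coloured points are the 8 genes, named on the left, and grey points the other tested genes. On the left Trim11 lies at 1.73 in brain, 1.47 in liver and 2.39 in thymus, and on the right the largest value of the 8 is that of Zfp39 in thymus, at 0.45.

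The Hmgn2 knockouts were compared with the C57BL/6 wild types, a difference that the choice did not use, although all 16 arrays of an organ share the normalization, the filter and the estimate of spread. By limma's moderated test with Benjamini-Hochberg adjustment over all genes, 0 of 6 genes passed in brain, 0 of 7 in liver and 0 of 6 in spleen, with 0 at an unadjusted p under 0.05 in each. All genes were called at 0.0218% in brain, 0.0131% in liver and 0% in spleen. In every organ the arrays overlapped for each of the genes, whereas they did not overlap for 1.06% of all genes in brain, 1.9% in liver, 2.35% in spleen and 15.3% in thymus. Trim11 differed by -0.11 ± 0.32 in brain and -0.18 ± 0.24 in liver, Igtp by -0.18 ± 0.17 in liver and Asgr2 by 0.12 ± 0.17 in liver. The errors of Trim11 take in the wide spread of the C57BL/6J wild types. A p that misses the threshold does not show that the groups were alike.

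In the thymus 1 of 6 genes passed, where 15.5% of all genes did and 7.22% were higher. Zfp39 rose in Hmgn2 knockouts, which read 8.74, 8.96, 8.95 and 8.37, against 8.31, 8.15, 8.38 and 8.37 in C57BL/6 wild types. The log2 difference was 0.45 ± 0.13 (limma, adjusted p = 0.0266, n = 4 each), and 3 of the 4 knockout arrays lay above every wild type. The call ended with median scaling in place of quantile normalization (0.20, adjusted p = 0.302), when the fit held these 8 arrays alone (adjusted p = 0.104), with the replicate number as a block (adjusted p = 0.0653), and without Hmgn2 knockout replicate 2 or 3 or C57BL/6 wild type replicate 2. The 95th percentile of the raw signal was 806.8 to 933.4 on thymus knockout arrays against 1072 to 1257 on wild types, and its part was not tested.

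The other 5 genes did not pass in the thymus of Hmgn2 knockouts. Of the 7 in the thymus fit, 2 had an unadjusted p under 0.05 by limma, Zfp39 and Ulk2. So did 2813 of all 9041 genes. Ulk2 differed by 0.27 ± 0.12 (limma, adjusted p = 0.141), Ublcp1 by 0.14 ± 0.10 (adjusted p = 0.395) and Pttg1 by -0.10 ± 0.12 (adjusted p = 0.599). Igtp differed by 0.15 ± 0.11 (adjusted p = 0.356). Trim11 differed by 0.20 ± 0.50 in the fit of all 16 arrays, which takes in the spread of the C57BL/6J wild types, and by 0.20 ± 0.16 in the fit of these 8 arrays (adjusted p = 0.477). Gm12253 is among the 7 of the thymus fit but left out of the counts of genes that passed or did not, since none of the 8 arrays detected it. An F test of whether the Hmgn2 knockout effect differs between organs called 0 of the 7 genes that could be tested, with 0 at an unadjusted p under 0.05, where it called 0.018% of 11085 genes.

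**Figure D4:**
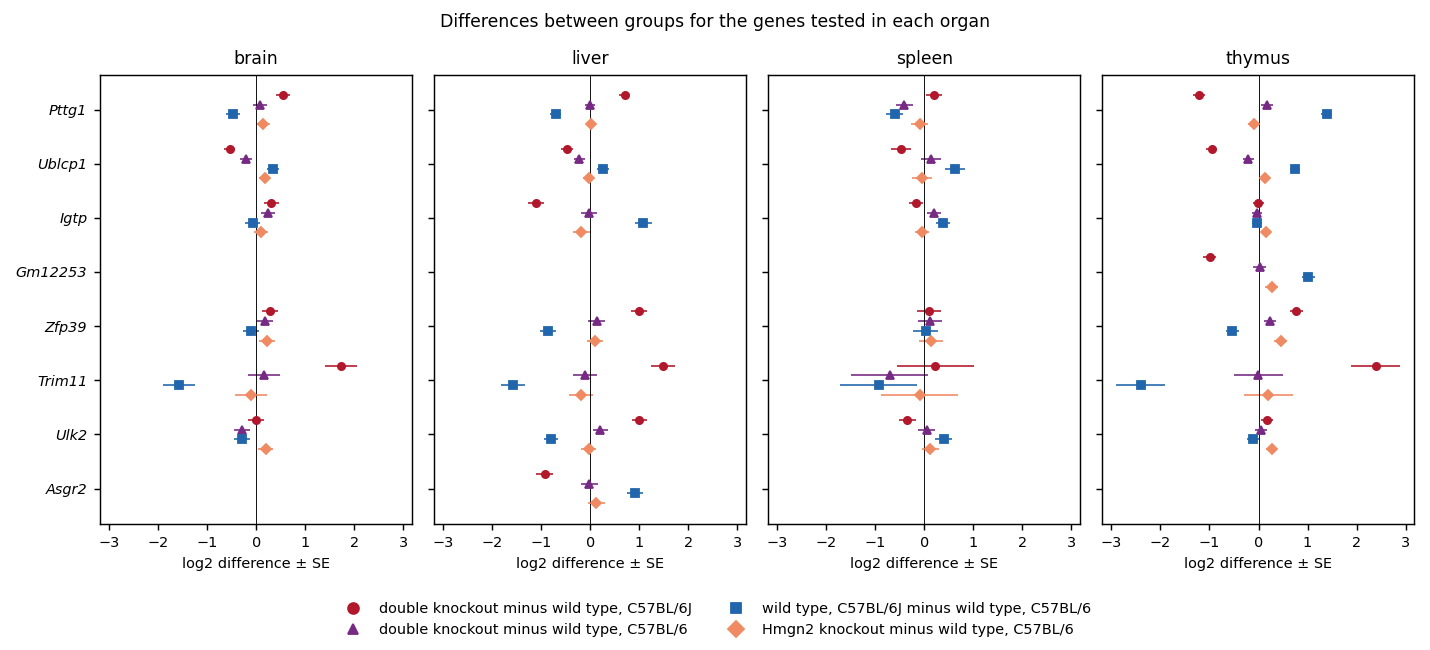
Log2 differences with standard errors (n = 4 arrays a group) for the genes tested in each organ, in 4 comparisons that share arrays: double knockouts minus either wild-type group, C57BL/6J minus C57BL/6 wild types, and Hmgn2 knockouts minus C57BL/6 wild types. Igtp in liver lies at -1.11 for double knockouts minus C57BL/6J wild types and at 1.08 for C57BL/6J minus C57BL/6 wild types, which share the C57BL/6J arrays with opposite sign. Gm12253 in thymus was detected on the C57BL/6J wild-type arrays alone.

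Genes of the same pathways were set beside the 8, from lists that leave the 8 out. Between double knockouts and C57BL/6J wild types, 3 passed over all lists and organs, each from the list of KRAB zinc finger genes. List genes on chromosome 11 could not pass in this comparison, which the choice of the 8 fixed. Zfp940 rose in brain, by 0.99 ± 0.12 (limma, adjusted p = 0.000371). Zfp30 fell in liver, at -0.82 ± 0.13 (adjusted p = 0.00734), and Zfp420 rose in thymus, by 0.96 ± 0.14 (adjusted p = 0.00355). These were 1 of 14, 1 of 10 and 1 of 13 tested members of that list. The spleen gave 0 of 132 list genes, with 11 at an unadjusted p under 0.05.

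In Hmgn2 knockouts 0 of 352 list genes passed over brain, liver and spleen, with 9 at an unadjusted p under 0.05 in the limma fits. In the thymus 24 of 132 passed, where 15.5% of all genes did. The list around Pttg1 had 5 of 22 genes higher and 0 lower, with a median of 0.24 against 0.02 over all genes. Stag1 and Stag2, both cohesin subunits, rose by 0.85 ± 0.16 (adjusted p = 0.00243) and 0.57 ± 0.12 (adjusted p = 0.00543). The autophagy list around Ulk2 had 5 of 24 higher and 3 lower: Map1lc3a, of the family that coats autophagosomes, fell at -0.80 ± 0.13 (adjusted p = 0.000932), and Atg16l1 rose by 0.45 ± 0.10 (adjusted p = 0.00585). The interferon-gamma signalling list had 3 of 20 higher and 3 lower, with Ifngr1, a receptor chain, at 0.41 ± 0.10 (adjusted p = 0.0125) and Psme2, a proteasome activator, at -0.54 ± 0.13 (adjusted p = 0.011). Among the remaining lists 1 of 9 GTPases, 1 of 22 TRIM ligases and 2 of 13 KRAB zinc finger genes rose, 1 of 12 genes of the proteasome base fell, and 0 of 10 clearance genes passed, with 1 at an unadjusted p under 0.05.

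Organ levels were compared in the C57BL/6 wild types, with all 64 arrays normalized together and limma's test adjusted over 10598 genes. Of all genes, 74.3% differed between brain and liver, 76.6% between brain and spleen, 75.3% between brain and thymus, 71.3% between liver and spleen, 71.2% between liver and thymus and 52.4% between spleen and thymus. Asgr2 was a liver gene, at 8.69 ± 0.15 (SD, n = 4) against 4.60 ± 0.21 in brain, and it was detected on 1 of 4 brain arrays and on none of spleen or thymus. Igtp ran in the order thymus at 9.88 ± 0.09, spleen at 9.13 ± 0.32, liver at 8.35 ± 0.25 and brain at 5.75 ± 0.30, and each step passed the test. Trim11 kept the same order under this joint normalization, each step again past the test. It read 8.37 ± 0.16 in thymus, 7.74 ± 0.16 in spleen, 7.24 ± 0.19 in liver and 6.73 ± 0.21 in brain. Normalized within each organ, Trim11 read 6.52 in liver and 6.70 in brain, so the order of liver and brain depended on the normalization.

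Zfp39 was highest in thymus, at 8.11 ± 0.11, above spleen at 7.40 ± 0.09 (adjusted p = 0.000421), and its steps from spleen to liver and from liver to brain did not pass. Ulk2 was higher in brain and liver, at 8.28 ± 0.29 and 8.26 ± 0.16, than in spleen, at 7.46 ± 0.31, and thymus, at 7.28 ± 0.10, with the step from liver to spleen past the test (adjusted p = 0.00021) and the steps within each pair not. Ublcp1 ran from 9.93 ± 0.22 in spleen over brain and liver to 8.66 ± 0.05 in thymus. Each step passed, but with the mouse as a block, since the organs come from the same 4 mice, the step from liver to thymus did not (adjusted p = 0.0388 without and 0.0577 with the block), and no other step of the 8 genes changed its call. Pttg1 was highest in spleen, at 5.82 ± 0.24, which did not differ from liver by the test (adjusted p = 0.278), and lowest in brain, at 4.72 ± 0.27. Gm12253 was detected on none of these 16 arrays. Several liver steps depended on normalizing all arrays together. Normalized within each organ, Ublcp1 read 8.52 in liver and 8.85 in thymus, and Ulk2 read 7.66 in liver and 7.82 in spleen. Pttg1 then read 4.96 in liver, 5.32 in thymus and 6.14 in spleen. Igtp kept its order, and Asgr2 stayed highest in liver. The part of the normalization was not tested.

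**Figure D5:**
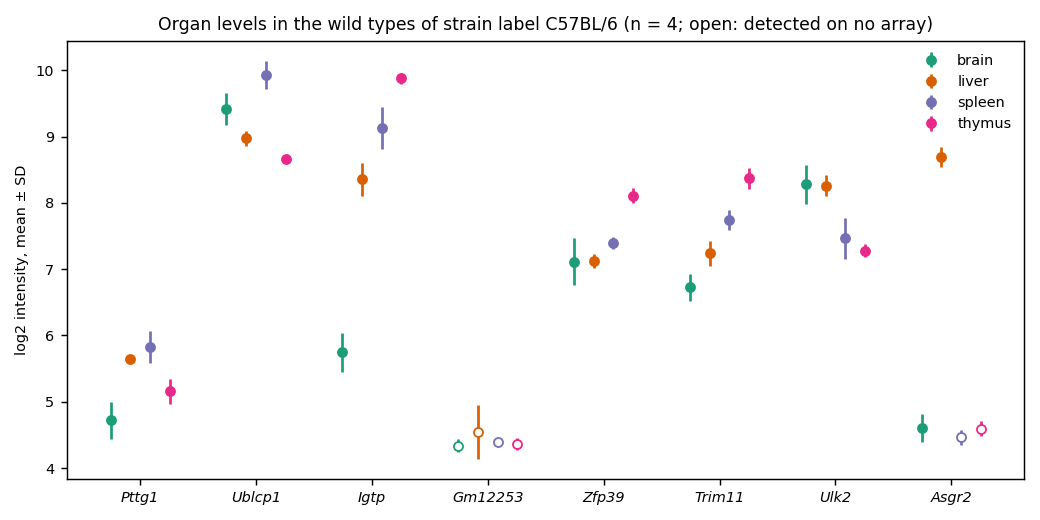
Mean log2 intensity with SD (n = 4 arrays) of the 8 genes in brain, liver, spleen and thymus of the C57BL/6 wild types, normalized over all 64 arrays, with open points where no array detected the probe. Asgr2 is at 8.69 in liver and at 4.60 or below elsewhere, and Igtp and Trim11 are highest in thymus and lowest in brain.

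Likeness to other genes was measured by Pearson's r over the 64 arrays after the organ means were removed, among 10331 genes, and is given as a description. These arrays share group differences and include the 2 spleen libraries. Irgm2 came nearest to Igtp, at 0.66, followed by Gbp7 at 0.64. Ankle2 came nearest to Zfp39, at 0.79, and Usp25 was the second gene for Zfp39, at 0.71, and the first for Trim11, at 0.76. Zfp317 was nearest to Ulk2, at 0.79, Ubtd2 to Ublcp1, at 0.77, Fbxo27 to Gm12253, at 0.68, Gckr to Asgr2, at 0.63, and Pdyn to Pttg1, at 0.53. Of the genes named here, Irgm2 and Ubtd2 lie on chromosome 11, Ubtd2 with 114 genes between it and Ublcp1.

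Except for Ulk2, each gene rests on 1 probe, and the sources used here do not give its target sequence, so a change of level and a change in the target of the probe cannot be told apart.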

How the data were processed

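Per the labels' protocols, Trizol was used to extract RNA, and biotin-labelled cRNA was put on Illumina arrays. GenomeStudio 2011.1 is named in the submitters' processing notes. The deposited tables hold a raw signal intensity per probe, with the background not subtracted, a detection p-value per probe, per the file headers, and, in a second table, an intensity normalized by the authors, used as an alternative. No genome build is named in the sources used here.

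Intensities were corrected and quantile normalized within each organ with neqc of limma 3.58.1 in R 4.3.3 (offset 16), giving log2 values. Probes had to reach a detection p under 0.01 on 4 or more of the 16 arrays of the organ, and the brightest probe stood for a gene. This left 9157, 7646, 9237 and 9041 genes in brain, liver, spleen and thymus. Of 25697 probes, 23978 had 1 gene, 0 several and 1719 none. Symbols and gene order are those of RefSeq for GRCm38.p6. Of 182 list words 165 matched.

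The limma model held 4 group means per organ, with p-values adjusted by the Benjamini-Hochberg method over all genes and read at 0.05. Differences are given with limma's standard errors, from a spread pooled over the 4 groups of the organ. The organ comparison used all 64 arrays, with the mouse as a random block in the F test (correlation 0.0135). The numbers of arrays limit the precision.

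The 8 genes, the lists and the tests were chosen with earlier results of these data known. The rule for other named genes took the nearest tested genes on each side, the 2 most alike by correlation, and up to 4 called or 2 leading genes of each list; of these, examples are printed. Replicate numbers of mutants and wild types were not used as pairs: in 0 of the 8 comparisons did each pair correlate above 0.1. Nothing in the labels ties a number to a litter, so p-values measure the spread between these mice. The fits were tested on simulated data. Alternatives changed the background correction, scaling, source, filter, probe, weights, prior and arrays.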

Additional observations from a re-analysis of the deposited data

Results flagged for a closer look

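Single arrays stood apart from the other 3 of their group, by Dixon's test at the 95% level, in 8 of the 104 groups of 4 tested, where chance gives about 1 in 20. In the spleen the library labelled double knockout replicate 1 read 4.66 for Trim11, where the other 3 read 8.23 to 8.34, and 7.24 for Zfp39, where the others read 8.00 to 8.13. This library also had the Hmgn2 level of a wild type. Pttg1 read 6.36 in spleen Hmgn2 knockout replicate 4, against 5.94 to 5.95 in the others. In the thymus Pttg1 read 5.26 in double knockout replicate 3, against 5.53 to 5.58, and 5.01 in C57BL/6 wild type replicate 4, against 5.40 to 5.44. Ulk2 read 7.71 in brain double knockout replicate 1, against 7.90 to 7.93, and 8.57 in brain C57BL/6 wild type replicate 2, against 8.00 to 8.06. It read 7.51 in thymus Hmgn2 knockout replicate 1, against 7.80 to 7.83.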

How the results depend on the processing

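No difference that was called changed its direction under the settings run. The number of genes whose double knockouts and C57BL/6J wild types did not overlap stayed at 6 to 7 in liver and 4 to 5 in thymus. In brain it was 3, and 2 to 5 over all settings, with 5 without double knockout replicate 1. In spleen it was 1, with 4 without the 2 libraries against their labels and 2 without double knockout replicate 1; there the Trim11 difference ran from -0.64 to 1.53. The 1 gene called in thymus Hmgn2 knockouts, Zfp39, was lost (0 called) with median scaling, with the replicate block (adjusted p = 0.0653), without the array outside the fence, Hmgn2 knockout replicate 3, and with the 8 arrays alone (adjusted p = 0.104). Leaving out each array gave 0 to 1, with 0 without Hmgn2 knockout replicate 2 or 3 or C57BL/6 wild type replicate 2. Its difference ran from 0.20 to 0.58 and its adjusted p from 0.00186 to 0.302; beyond the fewer arrays of some settings the cause was not tested. Median scaling moved the median of all genes to -0.17 in thymus Hmgn2 knockouts and to -0.19 in liver double knockouts.

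Differences of genes undetected on some arrays moved between settings: Pttg1 in liver was 0.21 without background correction, 1.32 with all 64 arrays normalized together and 1.83 in the deposited normalized table, and Trim11 in liver was 0.55, 1.77 and 2.13. The cause was not tested. Among single genes 25 values of 544 moved by more than the spread in the double knockouts. The replicate block changed no other call among the 8 genes in Hmgn2 knockouts, and gave 13 steps in the organ comparison. For double knockouts, whose members are not tested, it brought the genes called in all to 7 in brain, 11 in liver and 12 in thymus, against 13, 24 and 21 without it; same-numbered arrays correlated at -0.62 to 0.65, with no comparison above 0.1 throughout. Genes called in all ranged from 272 to 2305 in thymus Hmgn2 knockouts and from 7 to 339 in brain double knockouts. The organ comparison called 14 neighbouring steps, and 11 to 14 over its settings.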
